A study of Mus musculus with 3072 samples.

Results

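Single microglia from the hippocampus of APP/PS1-ApoeKO mice, which carry an amyloid transgene and lack Apoe, were set against hippocampal microglia of APP/PS1 mice that kept Apoe. The members were every cell of these 2 groups in the deposited count table, 594 of the 1713 cells that carry a read depth in the labels and of the 1878 columns in the table. Of the 594 cells 54% came from the knockout. The series profiled single microglia of male mice from cortex and hippocampus, with and without the amyloid transgene and with and without Apoe. The knockout mice were 18 months old and the APP/PS1 mice 17 months old. Both groups share the APPswe/PS1dE9 transgene, a mutant human amyloid precursor protein with a mutant presenilin, and both groups were male. The labels' protocol derives the knockout line from APPswe/PS1dE9 mice and a C57Bl/6-Apoenull breeder, bred to homozygosity, and describes a move of all lines between laboratories before use. Apoe is absent from every cell of the knockout animals, not from microglia alone.

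Live cells were sorted on CD11b, a surface integrin of myeloid cells, with a single cell per well, and their RNA was read by a modified Smart-seq2 protocol, which reads along whole polyadenylated transcripts without molecular identifiers. The labels name a plate and a sequencing lane for each cell and no animal. All cells of a group were therefore summed into 1 sample per group, and no p-value is given. Intervals of ratios treat reads, and intervals of shares treat cells, as independent counts, and neither covers differences between animals. Each group filled 4 plates, called knockout plates 1 to 4 (lanes 35 and 36) and APP/PS1 plates 1 to 4 (lanes 41 and 42). Plates split the cells of a group and are not replicates. Genotype, line, age and lane separate the groups in the same way and cannot be told apart.

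Apoe encodes apolipoprotein E, a secreted carrier of cholesterol and phospholipids that is made in the brain mainly by astrocytes and by activated microglia. Microglia next to amyloid plaques take on an activated state in which homeostatic genes such as P2ry12 and Tmem119 go down and genes such as Apoe, Cst7, Itgax, Clec7a and Lpl go up. Smaller groups of microglia in amyloid brains carry an interferon response or the MHC class II molecules that present antigen to T cells.

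The knockout cells held 151578978 reads on genes in all and the APP/PS1 cells 156047722, with medians of 442917 and 581149 reads per cell and 2107 and 2131 genes per cell. Of 10 microglial identity genes, a median of 10 were read per knockout cell and 9 per APP/PS1 cell, and at least 5 were read in every knockout cell and in all APP/PS1 cells but 1. At least 3 markers of another cell type were read in 2 knockout and 3 APP/PS1 cells. Summed over 8 markers, border-associated macrophage genes came to 5.32 against 11.5 RPM (a gene's count per 1000000 counts of the group), with Cd163, Lyve1 and Pf4 at 0 in both groups, and monocyte genes to 4.3 against 10.7 RPM. Endothelial or mural genes went the other way, at 39.8 against 15.2 RPM, as did B cell genes at 636 against 419 RPM, of which Ighm, the mu heavy chain gene, was the member with no overlap between plates (610 against 390 RPM). Ly6c1, Rgs5 and Pdgfrb of the endothelial or mural list and Ms4a1 and Pax5 of the B cell list had no read in either group. The part of these lists in the results below was not tested.

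Apoe itself was read at 0.745 RPM in the knockout and at 11919 RPM in APP/PS1. By plate it stood at 0, 0, 1.92 and 0.195 RPM in the knockout and at 11646, 13875, 14454 and 7255 RPM in APP/PS1. Its knockout reads lay in 3 cells, of which 1 cell of plate 3 held 76.1%, while 86.1% of APP/PS1 cells had a read. These levels fit the genotype labels. After thinning every cell to 100000 reads, which left out 2 knockout cells and 1 APP/PS1 cell, 0.940% of knockout cells had an Apoe read. That share is for Apoe alone, and no such background was measured for the other genes whose shares of cells are given below.

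A gene's level is its RPM in the sum of a group, and the log2 ratio of knockout to APP/PS1 was taken after adding 0.5 RPM to both. Of 12470 genes with a mean of at least 1 RPM, 54.7% were higher in the knockout, with a median log2 ratio of 0.07. Among these genes 12.6% differed 2-fold or more upwards and 8.55% downwards, and all plates of the knockout lay above all plates of APP/PS1 for 4.44% and below them for 2.66%. These 4 shares are the background for the members of the gene lists. Where the plates of the groups do not overlap they are called apart.

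A stricter set of 5934 genes reached 20 RPM, with reads in 10% of the cells or more, in either group. In it 4.31% of genes were higher in the knockout 2-fold or more and 2.68% were lower by as much. Plates were apart upwards for 5.51% and downwards for 3.27%. Without APP/PS1 lane 42 the 2-fold shares were 6.66% higher and 4.53% lower. The share of lower genes also passed 1.5 times its value without knockout lane 35 (4.33%) and without knockout lane 36 (4.51%).

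**Figure D1:**
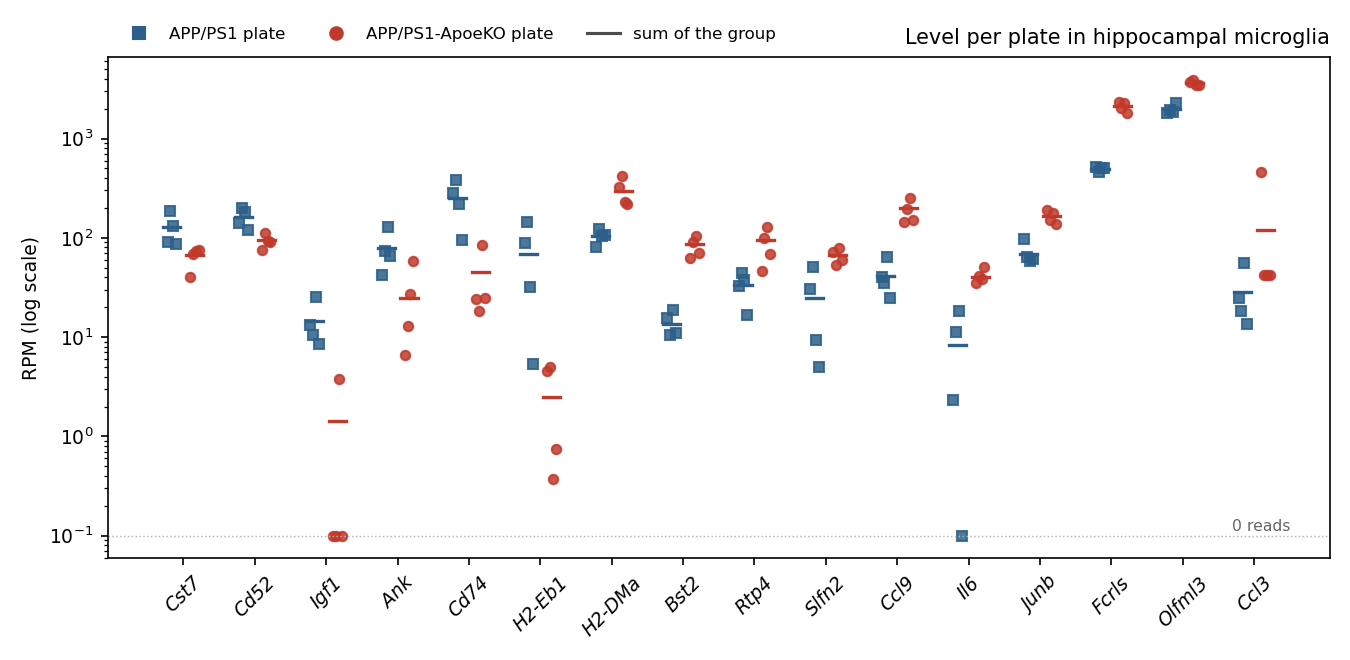
RPM on a log scale for 16 genes of the lists, with 1 point per plate (squares APP/PS1, circles APP/PS1-ApoeKO) and a bar at the level of the summed group. Cst7, Cd52, Igf1, Cd74 and H2-Eb1 lie lower on every knockout plate, H2-DMa, Bst2, Rtp4, Slfn2, Ccl9, Il6, Junb, Fcrls and Olfml3 lie higher on every knockout plate, and for Ank and Ccl3 the plates overlap.

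Genes of activated, plaque-associated microglia were on the whole lower in the knockout, by unequal amounts. Of 20 such genes 19 reached 1 RPM, of which 15 were lower and 4 higher in the knockout, with a median log2 ratio of -0.53 beside 0.07 over all genes. At least 2-fold differences were 6 downwards and 3 upwards, and plates were apart downwards for 4 genes (Cst7, Igf1, Cox6a2 and Cd52) and upwards for Ccl6. The list's median was -1.33 without knockout lane 36, -1.07 without knockout plate 3 and -0.26 without APP/PS1 plate 3.

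Cst7, which encodes the protease inhibitor cystatin F, stood at 40.3, 69.4, 74.1 and 75.7 RPM on the knockout plates and at 90.5, 187.6, 130.6 and 87.2 RPM on the APP/PS1 plates. Every knockout plate was below every APP/PS1 plate, though the nearest plates differed little. The summed levels were 66.7 and 128.01 RPM, a 1.92-fold lower level in the knockout (95% interval 1.87 to 1.97). The share of cells with a Cst7 read was 10.7% (7.49 to 14.6, exact binomial 95% interval) against 12.9% (9.13 to 17.4), or 11.8% and 12.8% before thinning, and these intervals overlap.

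Itgax, the integrin subunit CD11c, was read at 7.03, 9.24, 32.2 and 15.9 RPM on the knockout plates and at 26.5, 49.9, 108.7 and 14.4 RPM on the APP/PS1 plates. Knockout plates 3 and 4 reached into the range of APP/PS1, so the plates were not apart. The sums were 18.5 and 51.5 RPM, 2.79-fold lower in the knockout (2.67 to 2.92), and 5.02% (2.89 to 8.02) against 11.8% (8.19 to 16.2) of cells had a read, or 4.98% and 12.8% before thinning. Without APP/PS1 plate 3 the log2 ratio of Itgax moved from -1.46 to -0.76.

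Clec7a and Axl, receptors of the same state, stood closer together in the sums than Itgax, and the direction of Clec7a turned in 5 of the sums without 1 plate or lane. The lectin receptor Clec7a stood at 61.9 against 71 RPM and the receptor tyrosine kinase Axl at 60.3 against 60.5 RPM, with overlapping plates. Their plate values ranged from 9.71 to 111.3 and from 34.8 to 90.8 RPM in the knockout. In APP/PS1 they ranged from 25.5 to 141.8 RPM and from 35.7 to 74.5 RPM.

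The growth factor gene Igf1 showed the largest gap of the plate-separated members. It had no read on knockout plates 1, 2 and 4 and 3.82 RPM on plate 3, against 13.2, 10.5, 25.3 and 8.5 RPM in APP/PS1. All knockout reads came from 1 cell, against 15 APP/PS1 cells with a read, and the summed level was 10.2-fold lower (8.83 to 11.7). Cox6a2, a subunit of cytochrome c oxidase, stood at 1.92 against 14.5 RPM, 7.56-fold lower (6.69 to 8.57), with plates apart. The membrane antigen Cd52 was broadly read, in 59.2% and 67.4% of cells before thinning, and was 1.73-fold lower at 94.6 against 163.6 RPM (1.69 to 1.77), again with plates apart.

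Other lower members were rarer or spread over overlapping plates. The transporter Ank stood at 24.8 against 79.8 RPM, 3.22-fold lower (3.1 to 3.34). The fatty acid binding protein gene Fabp5 came to 0.508 against 6.22 RPM and the galectin Lgals3 to 9.21 against 18.1 RPM. Dkk2, an inhibitor of Wnt signalling, had no read in the knockout and 3.63 RPM from 4 cells in APP/PS1. It was at least 183.3-fold lower when 3 reads over the group are taken as the floor. Such a bound counts reads and does not cover which cells were drawn.

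Ccl6, a chemokine of the list, went the other way on every plate. Its knockout plates read 151.8, 164.8, 136.1 and 92.8 RPM and its APP/PS1 plates 45.9, 67.7, 86.3 and 66.2 RPM. The sums of 140 and 67.7 RPM differed 2.06-fold (2.01 to 2.11), and 42.6% (37.1 to 48.3) against 26.1% (21 to 31.7) of thinned cells had a read (48% and 32.2% before thinning).

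Per cell, the 2 groups parted only in the upper tail of the activated list. The median thinned cell held reads of 4 activated genes in both groups, and at least 5 were read in 89 knockout cells (27.9%, 23 to 33.2) and 79 APP/PS1 cells (29%, 23.7 to 34.8). At a limit of 8 genes, which was chosen after the distribution was seen, the counts were 8 cells (2.51%, 1.09 to 4.88) and 28 cells (10.3%, 6.95 to 14.5). By plate these were 1, 1, 5 and 1 knockout cells and 5, 8, 10 and 5 APP/PS1 cells. Many cells lay at or near the first limit, with 49 knockout and 26 APP/PS1 cells at exactly 5 genes and 95 and 61 cells at 4.

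**Figure D2:**
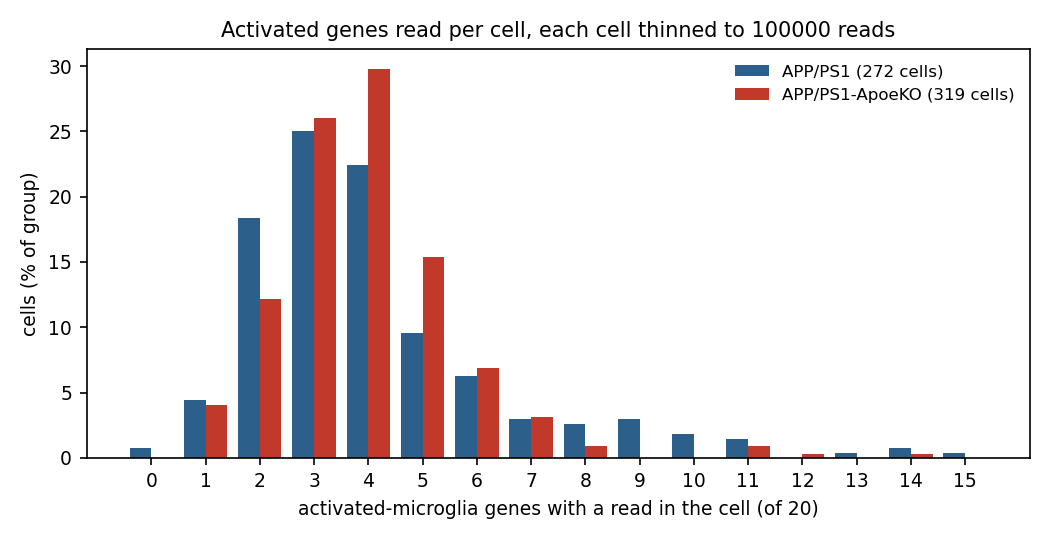
Share of cells (percent of the group) against the number of the 20 activated-microglia genes with a read in a cell thinned to 100000 reads, as bars for APP/PS1 and APP/PS1-ApoeKO cells. Both groups centre on 3 to 5 genes, and 8 or more genes were read in 2.51% of knockout and 10.3% of APP/PS1 cells.

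A few knockout cells carried most reads of several activated and inflammatory genes. Lpl, the lipoprotein lipase gene, stood at 146.8 against 22.8 RPM, 6.44-fold higher in the knockout (6.21 to 6.67), with plates at 10.1, 57.6, 337.2 and 24.8 RPM and at 6.14, 2.39, 74.7 and 6.06 RPM. One cell of knockout plate 3 held 17440 reads, 78.4% of all Lpl reads of its group, and the numbers of cells with a read were 13 and 12. Without the cell with most Lpl reads in each group the ratio was 2.53, and without knockout plate 3 the log2 ratio of Lpl moved from 2.66 to 0.59. Without APP/PS1 plate 3 it was 4.84.

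All 4622 knockout reads of Gpnmb, a membrane glycoprotein gene of lipid-laden phagocytes, lay in a different cell of knockout plate 3, and APP/PS1 had none. That cell also held all Igf1 reads, 80.9% of the reads of Ch25h (cholesterol 25-hydroxylase) and 91.8% of those of H2-Aa. Of the knockout reads it held 37.3% for Cd74, 22.7% for Clec7a and 22% for Cst7. The same cell held 76.1% of the knockout reads of Apoe, which stood at 115.73 RPM in it. Where these Apoe reads came from was not tested, so the genotype of this cell is less certain. The cell had 743104 reads and 2439 genes, above the median of its group in both.

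**Figure D3:**
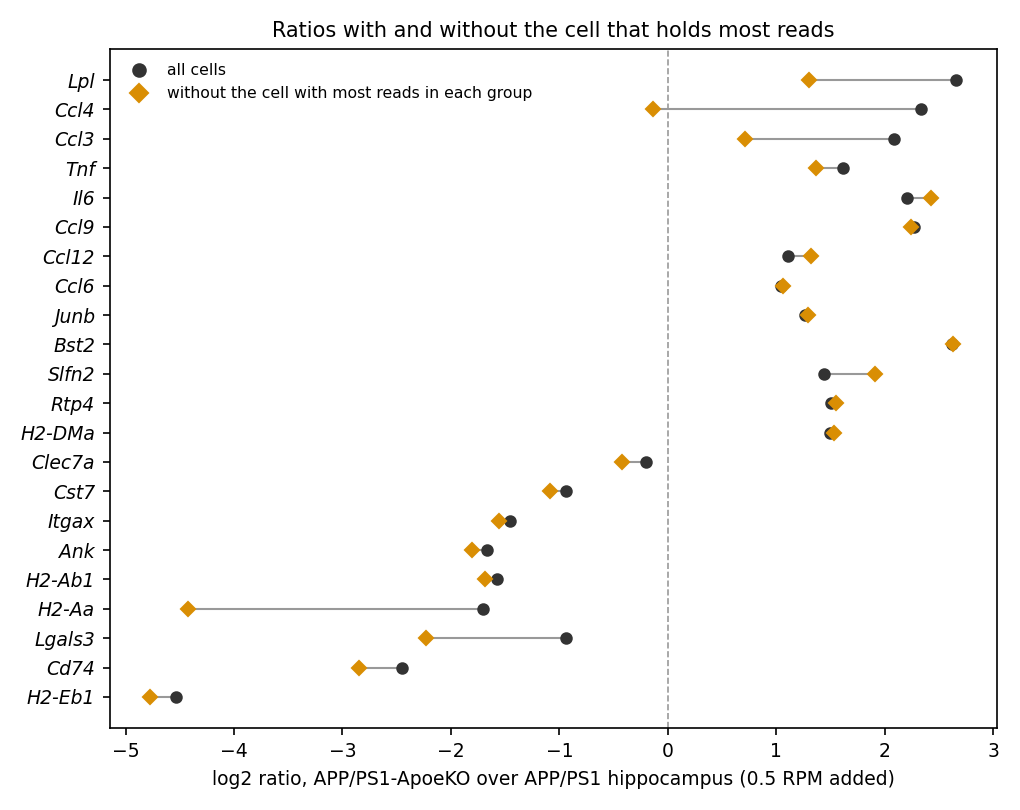
Log2 ratio of knockout over APP/PS1 hippocampus (0.5 RPM added) for 22 genes, over all cells (circles) and after leaving out, for each gene, the cell with most of its reads in each group (diamonds). Lpl, Ccl3 and Ccl4 move toward or past 0, H2-Aa and Lgals3 move further below 0, and Ccl9, Ccl6, Junb, Bst2, Rtp4 and H2-DMa keep nearly the same value.

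Homeostatic microglial genes were slightly higher in the knockout, and 1 of them by far. Of 16 such genes all reached 1 RPM, 14 were higher and 2 lower, with a median log2 ratio of 0.16 beside 0.07 over all genes. Plates were apart upwards for 7 of 16 and downwards for none, and only Fcrls differed at least 2-fold. Slc2a5, a fructose transporter, and Sparc, a matrix-binding glycoprotein, were the lower members, at 962 against 1069 RPM and 3797 against 4376 RPM.

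Fcrls, an Fc receptor-like gene that marks microglia, was read at 2358, 2011, 2266 and 1806 RPM on the knockout plates and at 522, 463, 500 and 504 RPM on the APP/PS1 plates. The plates of each group lay close together and far from the other group. The sums of 2136 and 495 RPM differed 4.31-fold (4.28 to 4.35). A read was found in 93.1% (89.7 to 95.6) of thinned knockout cells and 51.8% (45.7 to 57.9) of APP/PS1 cells, or 93.8% and 52.4% before thinning.

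The other plate-separated members differed less. The secreted protein gene Olfml3 was 1.83-fold higher at 3627 against 1985 RPM, the ADP receptor P2ry13 1.55-fold at 2549 against 1650 RPM and the sialic acid binding lectin Siglech 1.45-fold at 4728 against 3266 RPM. Gpr34, a receptor for lysophosphatidylserine, and Selplg, the selectin ligand PSGL-1, were also apart, with log2 ratios of 0.26 and 0.34. The identity genes used most often to define microglia showed small differences with overlapping plates: P2ry12 at 5492 against 5092 RPM, Tmem119 at 4384 against 3972 RPM and the fractalkine receptor Cx3cr1 at 11554 against 10899 RPM. Scaling by TMM factors or by median-of-ratios moved the median of the 5934 genes from 0.05 to -0.01, so a log2 ratio as small as that of Sall1 (0.03), a transcription factor of microglial identity, has no firm sign.

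MHC class II genes split in opposite directions. Of 7 genes 6 reached 1 RPM, with 4 at least 2-fold lower (H2-Aa, H2-Ab1, H2-Eb1 and Cd74), 1 at least 2-fold higher (H2-DMa) and a median log2 ratio of -1.64. Plates were apart downwards for Cd74 and H2-Eb1 and upwards for H2-DMa. Ciita, the master transactivator of this family, had 0 and 0.0128 RPM. Reads of at least 3 of the 7 genes were found in 4.39% (2.42 to 7.25) of thinned knockout cells and 7.35% (4.55 to 11.1) of APP/PS1 cells, and of at least 2 in 26.6% (21.9 to 31.9) and 18.8% (14.3 to 23.9), so the order of the groups turned with the limit.

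Cd74 encodes the invariant chain, which escorts class II molecules to the endosome. It stood at 24.4, 18.2, 84.8 and 24.8 RPM on the knockout plates and at 285.1, 383.8, 220 and 95 RPM on the APP/PS1 plates. All knockout plates were lower, and the nearest were knockout plate 3 and APP/PS1 plate 4. The sums of 45.2 and 249.1 RPM made Cd74 5.51-fold lower (5.37 to 5.65). Reads were found in 9.09% (6.17 to 12.8) against 21.3% (16.6 to 26.7) of thinned cells, 10.3% and 22.7% before thinning.

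H2-Eb1, a beta chain of the antigen-presenting dimer, stood at 4.56, 5.02, 0.373 and 0.742 RPM against 88, 143.3, 31.8 and 5.39 RPM. The highest knockout plate came close to the lowest APP/PS1 plate, and the sums of 2.49 and 68.7 RPM differed 27.6-fold (24.9 to 30.7). For the alpha chain H2-Aa the plates overlapped at 6.2, 0.0244, 36 and 0.0781 RPM against 19.9, 117.5, 27.6 and 13.7 RPM. H2-Aa was 3.32-fold lower in the sums and 30-fold lower without the top cell of each group. H2-Ab1, its partner chain, was 3.02-fold lower at 25.4 against 76.7 RPM, with overlapping plates. Without APP/PS1 lane 41 the log2 ratios of H2-Aa and H2-Ab1 were -0.50 and -0.22, against -1.70 and -1.58 with it, and the list's median was -0.36. Without knockout plate 3 it was -2.82.

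H2-DMa encodes the alpha chain of H2-DM, which loads peptides onto class II molecules. Its plates read 326.7, 415, 230 and 221.6 RPM in the knockout and 80.1, 123.1, 105.3 and 105.9 RPM in APP/PS1, with no overlap. The sums of 296.99 and 105.4 RPM made it 2.82-fold higher (2.77 to 2.87), in 46.4% (40.8 to 52) against 21.7% (16.9 to 27.1) of thinned cells and 48.3% and 23.1% of all cells. The beta chain gene H2-DMb1 stood at 107.8 against 79 RPM with overlapping plates. H2-DMb2, a near-identical neighbour with which reads can be exchanged, stood at 24.2 against 0.782 RPM, so its value is uncertain. In GRCm38 the 3 genes lie next to each other at chr17:34119541-34139101 (H2-DMa), chr17:34143307-34151555 (H2-DMb2) and chr17:34153072-34160230 (H2-DMb1).

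The promoters of the lower and the higher class II genes were read for the Y box CTGATTGG, a motif bound by the factor NF-Y in class II promoters, on both strands of a window from 250 bases before to 50 bases after the gene start. Promoters are from RefSeq (GRCm38.p6), which matched 4 of the 7 genes. The motif was in 2 of them, H2-Aa and H2-Eb1, beside 4.31% of 27025 promoters of the same length. It starts 51 bases before the start of H2-Aa and 62 bases before that of H2-Eb1. These letters were not in the window of H2-DMa. That window, chr17:34122582-34122881, lies inside the span given above for the gene, so the bases before that span were not read. The 150 bases before the start are shown for both genes that were lower together, with the Y box in capitals, from chr17:34287824-34287973 (minus strand) and chr17:34305717-34305866 (plus strand).
H2-Aa: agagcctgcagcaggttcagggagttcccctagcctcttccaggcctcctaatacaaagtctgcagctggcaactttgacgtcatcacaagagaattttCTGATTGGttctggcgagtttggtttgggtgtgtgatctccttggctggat
H2-Eb1: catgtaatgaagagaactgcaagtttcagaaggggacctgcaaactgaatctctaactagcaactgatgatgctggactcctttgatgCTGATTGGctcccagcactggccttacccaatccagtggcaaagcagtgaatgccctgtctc

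MHC class I genes were mostly higher in the knockout by small amounts. Of 12 genes, 10 were higher and 2 lower, with a median log2 ratio of 0.30, 1 at least 2-fold and plates apart upwards for H2-K1 and B2m. H2-K1, a classical heavy chain, stood at 877 against 571 RPM, 1.54-fold higher (1.52 to 1.55), and B2m, the light chain shared by all class I molecules, at 4134 against 3084 RPM, 1.34-fold higher (1.34 to 1.35). The gene past 2-fold, H2-Q4, had only 3.6 and 1.4 RPM. Reads of at least 5 class I genes were found in 69.6% (64.2 to 74.6) of thinned knockout cells and 52.6% (46.5 to 58.6) of APP/PS1 cells. Heavy chain genes are alike in sequence, and reads may be split among them.

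Interferon response genes leaned higher in the knockout, though the plates of most of them overlapped. All 18 genes reached 1 RPM, 13 higher and 5 lower, with a median log2 ratio of 0.44 beside 0.07 over all genes. At least 2-fold differences were 5 upwards and 1 downwards. Plates were apart upwards for Bst2, Rtp4 and Slfn2 and downwards for Ifi44. Without APP/PS1 lane 41 the list's median was 1.49, without APP/PS1 plate 2 it was 1.11, and without knockout lane 36 it was 0.05.

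Bst2 encodes tetherin, which holds budding viruses at the cell surface. Its plates stood at 62.6, 91.3, 103.3 and 70.5 RPM in the knockout and at 15.4, 10.4, 18.7 and 11 RPM in APP/PS1. No plate came near the other group, and the sums of 86.8 and 13.7 RPM differed 6.32-fold (6.04 to 6.62). The share of cells with a read was 32% (26.9 to 37.4) against 18.4% (14 to 23.5), or 32.4% and 19% before thinning.

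Rtp4, a chaperone of receptor transport, was 2.85-fold higher (2.77 to 2.95) at 95 against 33.3 RPM. Its knockout plates read 46.3, 98.7, 129.1 and 68.7 RPM and its APP/PS1 plates 33, 44.2, 37.3 and 16.7 RPM. Slfn2, a member of the Schlafen family, was 2.74-fold higher (2.64 to 2.85) at 67.5 against 24.6 RPM, with the nearest plates at 53.8 and 51.3 RPM. Ifi44 had no read in the knockout and 24.5 RPM, 3827 reads in 9 cells, in APP/PS1. It was at least 1239-fold lower by count of reads, a bound that does not cover which cells were drawn. The membrane protein gene Ifitm3, at 50 against 19 RPM, and Mx1, at 10.9 against 2.98 RPM, had overlapping plates, and the log2 ratio of Mx1 moved from 1.71 to -0.08 without knockout plate 2. Ifit1, Ifit2, Ifit3 and Usp18 were lower in the knockout, with log2 ratios between -0.96 and -0.13.

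Cells with reads of at least 5 interferon genes numbered 35 in the knockout (11%, 7.76 to 14.9) and 19 in APP/PS1 (6.99%, 4.26 to 10.7), and the intervals overlap. Knockout plates ranged from 3.85% to 18.1% and APP/PS1 plates from 6.06% to 9.38%. The core of the interferon-stimulated response element, GAAANNGAA on either strand, was in the promoters of 7 of the 12 interferon genes with a promoter kept, beside 8.57% of the 27025 kept. Bst2, Ifitm3, Isg15 and Oas1a of these were higher in the knockout, and Ifi44, Ifit1 and Ifit3 were lower. The promoter of Bst2 holds 2 overlapping copies, the first of which starts 130 bases before the gene start, and that of Slfn2 holds none. The 150 bases before Bst2, at chr8:71537473-71537622 on the minus strand, are shown because Bst2 had the largest higher ratio of the list, with the overlapping copies in capitals.
Bst2: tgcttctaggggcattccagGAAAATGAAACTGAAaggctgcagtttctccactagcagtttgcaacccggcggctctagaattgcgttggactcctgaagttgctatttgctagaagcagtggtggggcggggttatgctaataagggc

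Chemokine genes held the highest list median, 1.35, over 9 of 12 genes with at least 1 RPM, of which 6 were higher 2-fold or more and 2 were as much lower. Plates were apart for Ccl9 alone, and for several others a single cell set the value. The median over the list was 0.20 without knockout plate 1 and 0.71 without the top cell of each gene, against 2.09 without APP/PS1 plate 3.

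Ccl9, a ligand of the receptor CCR1, was higher on every plate, at 143.5, 193.2, 250.8 and 152.1 RPM against 39.9, 34.8, 63.4 and 24.9 RPM. The sums of 198.2 and 40.8 RPM differed 4.86-fold (4.73 to 4.99), and reads were in 37.9% (32.6 to 43.5) against 11.4% (7.88 to 15.8) of thinned cells, 39.6% and 11.4% before thinning. Ccl12, a ligand of CCR2, stood at 50.4 against 23 RPM, 2.19-fold higher (2.11 to 2.28), in 21% (16.7 to 25.9) against 9.19% (6.04 to 13.3) of thinned cells, with overlapping plates. Ccl12 kept a log2 ratio of at least 0.76 without any 1 plate or lane.

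Ccl3, another ligand of CCR1, stood at 456, 42.6, 42.3 and 41.9 RPM on the knockout plates and at 24.6, 18.5, 55.9 and 13.7 RPM on the APP/PS1 plates. Knockout plate 1 stood apart from the other plates of both groups. The sums of 120.7 and 28.3 RPM gave a ratio of 4.27 (4.13 to 4.41), which was 1.64 without the top cell of each group. Ccl4 behaved likewise at 60.4 against 11.6 RPM, with a ratio of 5.20 that became 0.905 without the top cells. Ccl2, a ligand of CCR2, had 22.7 RPM in the knockout and no read in APP/PS1, at least 1180-fold higher by count of reads. These reads lay in 4 cells, with 94.1% in 1 of them, and the bound does not cover which cells were drawn.

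The cell with most Ccl2, Ccl3 and Ccl4 reads was the same cell of knockout plate 1. It held 66.8% of the Ccl3 reads, 87% of the Ccl4 reads, 86.3% of the reads of the cytokine Tnf and 93.1% of those of the immediate early gene Egr1. It had 400961 reads and 2190 genes, with Csf1r, a receptor that microglia depend on, at 3447 RPM, and no read of Itgax, Clec7a, Cst7 or Lpl. Tnf stood at 8.71 against 2.52 RPM in 3 and 2 cells, and without knockout plate 1 its log2 ratio moved from 1.61 to -0.61. In APP/PS1 the interferon-induced chemokine Cxcl10, at 3.72 RPM, came from 1 cell of plate 3.

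Il6, the gene of interleukin 6, was the plate-separated member of the 9 measured cytokine and NF-kB feedback genes. Its plates stood at 34.9, 41.3, 38.3 and 50.4 RPM in the knockout and at 2.33, 11.2, 18.2 and 0 RPM in APP/PS1. The knockout plates lay close together, and the sums of 40.5 and 8.41 RPM differed 4.82-fold (4.54 to 5.12). Reads were in 14.1% (10.5 to 18.4) against 2.57% (1.04 to 5.23) of thinned cells, or 15.3% and 2.93% before thinning. The list's median log2 ratio was 0.33, with 5 genes higher, 4 lower and only Il6 and Tnf past 2-fold, and it came to -0.05 without knockout plate 1 and 0.13 without knockout lane 36. The cytokine Il1a stood at 124.8 against 73.3 RPM with overlapping plates, and Tgfb1 at 22.1 against 41 RPM.

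The NF-kB site GGNNTTTCC, on either strand, was in the promoters of 4 of the 7 chemokine genes with a promoter kept, beside 5.72% of the promoters kept. The 4 were Ccl9, Cxcl2, Cxcl9 and Cxcl10, of which Cxcl10 was lower in the knockout (log2 ratio -3.06). The site was also in 4 of 10 cytokine and NF-kB feedback genes (Il6, Nfkbia, Nlrp3 and Tnfaip3). In other lists it was in 3 of 12 interferon genes, 1 of 4 class II genes and 1 of 11 homeostatic genes. Among activated genes it was in 4 of 16, namely Cd9, which was higher, and Csf1, Dkk2 and Igf1, which were lower. The site starts 35 bases before the start of Ccl9 and 43 bases before that of Il6, and these letters were not in the window of Ccl3. The 150 bases before the start are shown for these 2 genes, whose plates were apart and whose ratios did not rest on 1 cell, with the site in capitals, from chr11:83578637-83578786 (minus strand) and chr5:30012964-30013113 (plus strand).
Ccl9: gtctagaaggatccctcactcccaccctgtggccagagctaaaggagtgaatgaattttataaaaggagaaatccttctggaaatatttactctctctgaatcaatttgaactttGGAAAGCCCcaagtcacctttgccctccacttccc
Il6: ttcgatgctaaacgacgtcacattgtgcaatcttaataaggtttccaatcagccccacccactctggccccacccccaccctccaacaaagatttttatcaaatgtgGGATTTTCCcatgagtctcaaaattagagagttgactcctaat

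Immediate early genes, several of which respond to cell dissociation, had a median log2 ratio of 0.53, with 10 of 12 measured genes higher, 4 of them at least 2-fold, and 1 at least 2-fold lower. The median was 0.24 without knockout plate 1, 0.25 without APP/PS1 lane 42 and 0.96 without APP/PS1 plate 2. Junb, an AP-1 subunit, was the only one with plates apart, at 188.7, 151.1, 175.8 and 137.8 RPM against 97.1, 63.9, 58 and 61.1 RPM. It was 2.41-fold higher (2.36 to 2.47) at 165.1 against 68.5 RPM, in 39.5% (34.1 to 45.1) against 18% (13.6 to 23.1) of thinned cells and 42.1% and 19% of all cells. Fos had reads in 1 knockout cell, and Egr1 in 6 knockout cells and 1 APP/PS1 cell. Jun and Zfp36 differed by 0.33 and 0.22 on the log2 scale with overlapping plates. Whether handling before the sort takes part in the Ccl3, Ccl4 and Junb values was not tested.

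Genes that handle lipids, the cargo of apolipoprotein E, differed little as a list. Of 15 measured genes of lipid transport, uptake and efflux 8 were higher and 7 lower, with a median log2 ratio of 0.05. Abcg1, which exports cholesterol to lipoproteins, stood at 249.2, 233.5, 338.9 and 251.4 RPM against 181.3, 170.6, 192.2 and 154.8 RPM. Its plates were apart and it was 1.6-fold higher (1.57 to 1.62) at 278.6 against 174.4 RPM. Nr1h2, the sterol-sensing receptor LXR beta, was 1.65-fold higher with plates apart at 75.9 against 46.1 RPM. The exporter Abca1 stood at 667 against 501 RPM with overlapping plates, and the scavenger receptor Msr1 at 0.172 against 6.84 RPM was the 1 member past 2-fold. The neighbours of Apoe in its gene cluster were barely read: Apoc1 at 0.237 against 0.769 RPM, Apoc4 at 0 against 1.42 RPM and Apoc2 with no read.

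Cholesterol synthesis genes had a median log2 ratio of 0.22, with 11 of 14 measured genes higher. Sc5d, which makes a late intermediate of cholesterol, was apart at 31.6 against 11.7 RPM, 2.69-fold higher (2.55 to 2.84). It was read in few cells, 7.17% and 4.76% before thinning. Of 18 lysosomal genes 9 were higher and 9 lower, none by 2-fold and none with plates apart, with a median of -0.03. Cathepsin D (Ctsd) stood at 7158 against 8239 RPM and the growth factor progranulin (Grn) at 3698 against 2960 RPM.

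Complement genes included 1 with plates apart among 9 measured, C1qb at 9242 against 7282 RPM, and a median log2 ratio of 0.20. Among 19 measured genes near Alzheimer's disease risk loci the median was 0.05, with 3 past 2-fold upwards and none downwards. The largest was Sorl1, a sorting receptor that binds the amyloid precursor protein and apolipoprotein E, at 54.7, 48.8, 80.4 and 48 RPM against 2.77, 1.78, 1.38 and 1.18 RPM. No plates came near each other, and the sums of 61.5 and 1.73 RPM differed 35.5-fold (31.5 to 40.3), with reads in 16% (12.1 to 20.5) against 2.94% (1.28 to 5.71) of thinned cells, 18.1% and 4.03% before thinning. Cass4, a docking protein of focal adhesions, stood at 40.8 against 15 RPM with overlapping plates, and the astrocyte-enriched Clu at 7.53 against 3.08 RPM. Ms4a6d was 1.58-fold higher with plates apart. The receptor Trem2, at 2782 against 3255 RPM, and its adaptor Tyrobp, at 1965 against 2234 RPM, were both slightly lower with overlapping plates.

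Receptors of phagocytosis had a median log2 ratio of 0.03 over 12 measured genes and 2 large differences. Colec12, a scavenger receptor of the collectin family, had no read in any knockout plate and 118.3, 26.9, 82 and 57.1 RPM in APP/PS1. Its 10509 APP/PS1 reads lay in 50 cells, making its knockout level at least 3403-fold lower. Msr1 was the other. Stab1, the scavenger receptor stabilin 1, was 1.64-fold higher with plates apart at 636 against 389 RPM, and Mertk, a receptor that binds dying cells, stood at 1020 against 824 RPM.

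Genes of TGF-beta signalling, which maintains microglial identity, had a median of 0.16 over 11 genes, with Tgfbr1 (1115 against 747 RPM) and Itgav (103.2 against 61.8 RPM) apart upwards and none past 2-fold. Glycolysis genes had a median of 0.18 over 13, with Gapdh 1.89-fold (297.8 against 157.9 RPM) and Eno1 1.6-fold higher (163.2 against 102.05 RPM) and plates apart. The 15 measured nuclear genes of the respiratory chain had a median of 0.02 and none past 2-fold or apart. Cell cycle genes had a median of -0.42 over 11 genes, with no plates apart. Their reads lay in few cells, as for Mki67, with all knockout reads in 1 cell and 98.3% of APP/PS1 reads in 1 of 2 cells. The median was 0.22 without APP/PS1 plate 3 or lane 42.

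**Figure D4:**
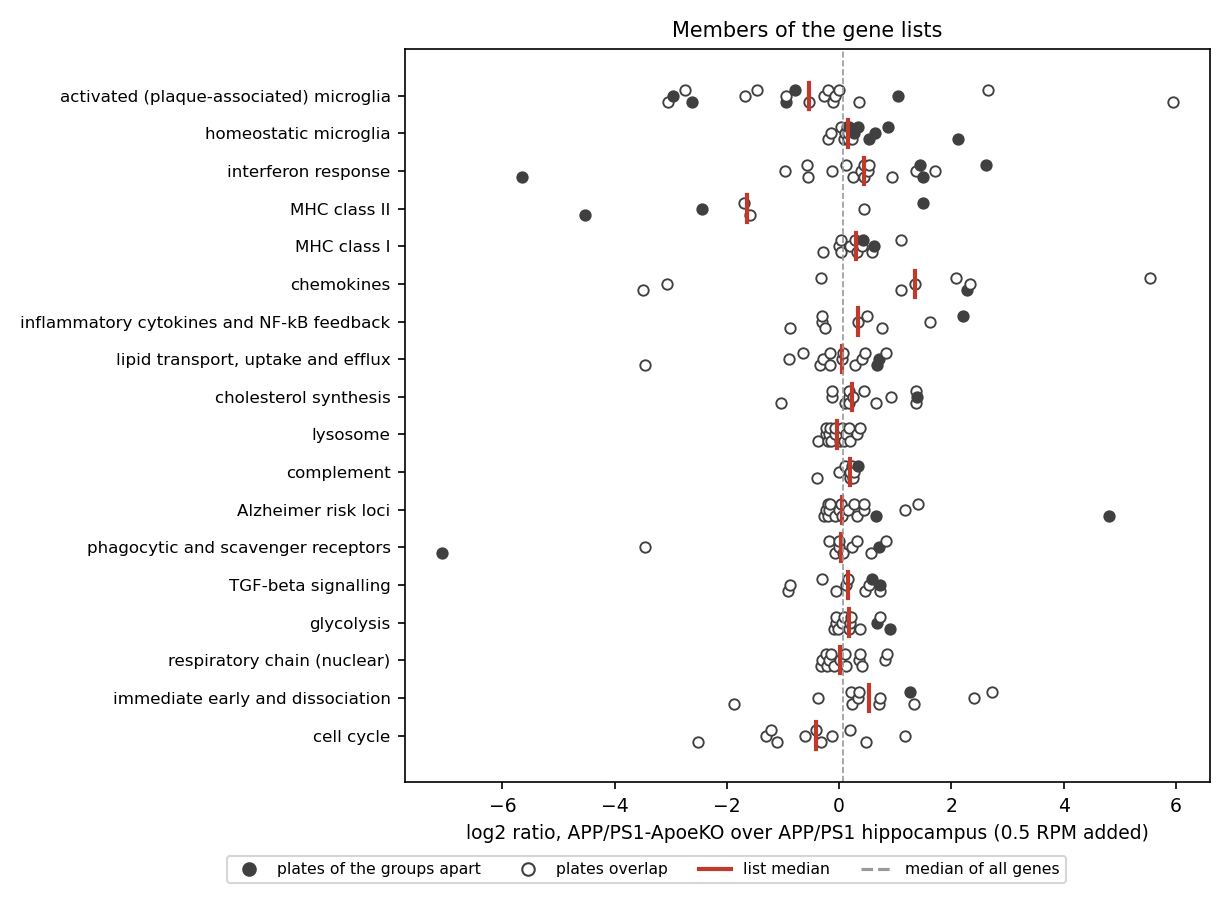
Log2 ratio of knockout over APP/PS1 hippocampus (0.5 RPM added) for each measured member of 18 gene lists, filled where the plates of the groups are apart and open where they overlap, with the list median as a bar and the median of all genes (0.07) as a dashed line. The activated list has its median at -0.53, MHC class II at -1.64 and chemokines at 1.35, and most other lists have medians between -0.03 and 0.53.

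Beyond the lists, 62 genes differed at least 4-fold with plates apart, 41 higher (0.691% of the 5934 genes) and 21 lower (0.354%). Many of them were all but absent in 1 group. The annotation lists 52 of them as protein coding and 6 as pseudogenes, of which 5 were lower, and 11 have provisional or pseudogene names and are not named here. By chromosome, the highest shares of the genes of the stricter set were 2.56% (8 genes) on chromosome 8 and 2.13% (6 genes) on chromosome 3, and there was none on chromosomes 1, 14, 15, 16 and X.

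Hpgd, which inactivates prostaglandins by oxidation, was the most highly expressed of the 10 named genes with the highest ratios. It stood at 396, 435, 583 and 486 RPM on the knockout plates and at 28.2, 2.85, 6.77 and 20.4 RPM on the APP/PS1 plates. The sums of 491 and 13.4 RPM differed 36.6-fold (35 to 38.2), and 74.3% (69.1 to 79) of thinned knockout cells had a read against 4.04% (2.04 to 7.12) in APP/PS1, 75.4% and 4.03% before thinning. Hpgd lies at chr8:56294585-56321043.

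Mrc2, an endocytic collagen receptor at chr11:105292643-105351139, had plates at 43.4, 57.9, 94.1 and 130 RPM in the knockout and no read in APP/PS1. It was at least 4199-fold higher. Ets1, a transcription factor at chr9:32636221-32757820, stood at 67.7 RPM and no read, at least 3522-fold higher, and Fblim1, a filamin-binding adaptor, at 26.3 RPM and no read, at least 1369-fold higher. Reads of Mrc2, Ets1 and Fblim1 were in 26.2%, 31.8% and 16.8% of knockout cells. For Mrc2 and Ets1, no thinned APP/PS1 cell had a read, which allows up to 1.35% of cells with a read at this depth (exact binomial upper bound) and sets no limit on cells that express the gene without a read.

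Near-complete differences also held for Trim12a, of the Trim5 family of antiviral factors, at 34.7 against 0.00641 RPM, and for Msh5, a meiotic mismatch repair protein, at 43.6 against 0.0128 RPM. Haao, an enzyme of tryptophan breakdown, stood at 25.4 against 0.545 RPM. H2-Q2, a class I gene at chr17:35342242-35346762, was read at 20.5, 23.8, 25.9 and 19.1 RPM on the knockout plates and at most at 0.156 RPM on an APP/PS1 plate. Msh5 lies nearby at chr17:35028605-35046745. Trim12a and H2-Q2 have close paralogs, so reads may have been split among copies.

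The lowest ratios after Apoe and Colec12 belonged to a set with few reads left in the knockout. Rps3a3, a copy of a ribosomal protein gene that is uncertain for the same reason, stood at 0.112 against 77.9 RPM. Hbegf, an EGF receptor ligand, read 17.9, 0, 11.9 and 0 RPM on the knockout plates and 90.3, 123.1, 114.2 and 103.4 RPM on the APP/PS1 plates. It was 14-fold lower (13.2 to 14.8) and was read in 1.25% (0.343 to 3.18) against 38.2% (32.4 to 44.3) of thinned cells. Cacna1a, a calcium channel subunit, and Zfp979, a zinc finger gene, were each 14.2-fold lower, Oaf 8.66-fold lower and Slfn9, of the Schlafen family, 8.23-fold lower.

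Some of the 62 lie side by side on a chromosome, which was noted after their values were seen. Scoc (165.7 against 8.25 RPM) and Clgn (27.2 against 1.36 RPM) are neighbours on chromosome 8, Fcrls and Fcrl1 (85.6 against 12.6 RPM) on chromosome 3, and Ms4a6b (120.9 against 23.7 RPM) and Ms4a6c (32.8 against 6.84 RPM) on chromosome 19. Endod1 and Amotl1 on chromosome 9 went in opposite directions, at 89.8 against 7.56 RPM and 13.8 against 77 RPM.

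**Figure D5:**
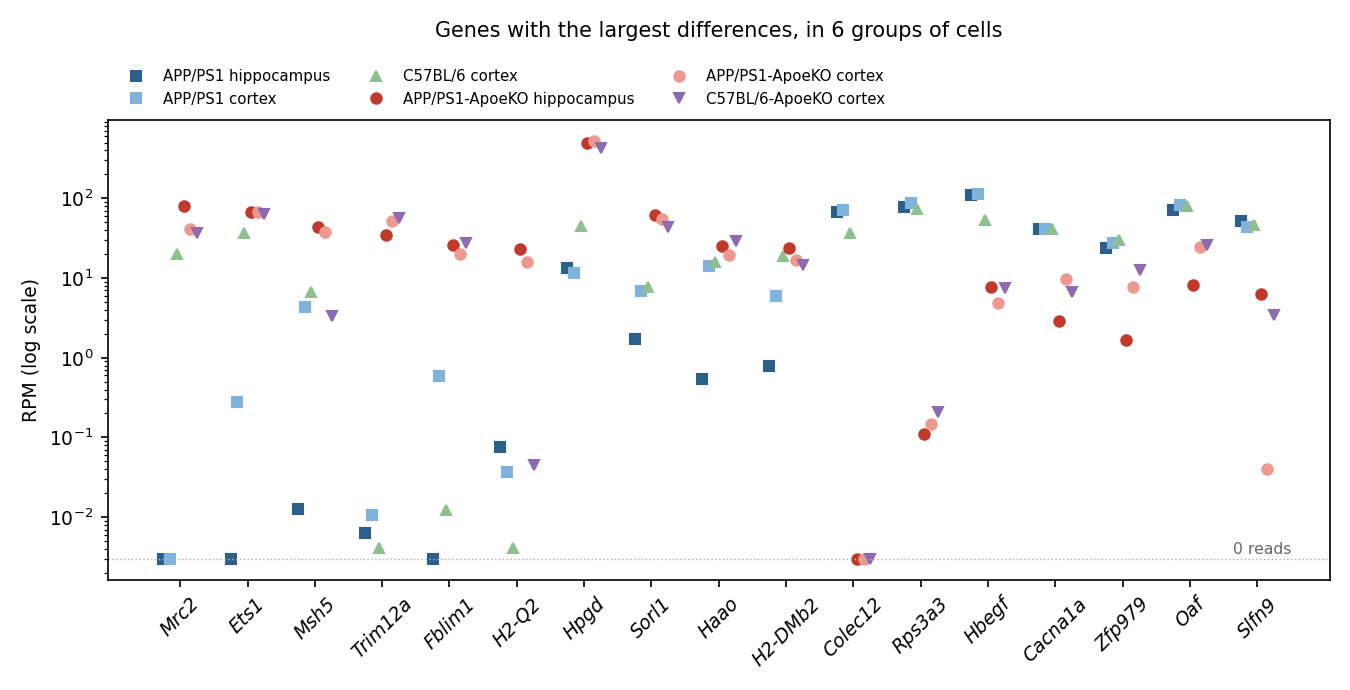
RPM on a log scale in 6 groups of cells for 17 of the genes with the largest plate-separated differences between the hippocampal groups, with squares for APP/PS1, circles for APP/PS1-ApoeKO and triangles for mice without the amyloid transgene. Trim12a, Hpgd, Colec12, Rps3a3 and Hbegf part all groups with Apoe from all groups without it, while H2-Q2 is above 1 RPM in the APP/PS1-ApoeKO groups alone.

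The same genotypes were also sampled in cortex, from fewer knockout cells, and differences between the tissues were not tested. Of the genes higher 2-fold or more in hippocampus 47.7% were also higher by as much in cortex, and of the lower genes 40.9% were lower there. Among the 62 genes 59 had the same direction in cortex, 54 of them by at least 2-fold. The same shares over all 5934 genes were not computed, so these counts have no background. The animals of the cortical and the hippocampal groups are not named and may be the same, so the tissues are not independent samples.

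The activated genes showed a larger gap in cortex than in hippocampus. Their median log2 ratio came to -1.90 in cortex beside -0.53 in hippocampus, where the medians over all genes were 0.17 and 0.07. Cst7 stood at 109.2 against 387 RPM in cortex, Itgax at 13 against 145.4 RPM, Clec7a at 55.4 against 207.7 RPM and Axl at 37.8 against 141.4 RPM. For Clec7a and Axl the hippocampal levels of the genotypes were nearly equal. In APP/PS1 all 4 genes were lower in hippocampus than in cortex, and in the knockout Clec7a, Itgax and Axl were higher in hippocampus and Cst7 was lower. Lpl was lower in the cortical knockout, at 16.3 against 61.9 RPM.

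MHC class II had a median of -2.21 in cortex, interferon response 0.47 and homeostatic genes 0.24, beside -1.64, 0.44 and 0.16 in hippocampus. The chemokine median was -0.67 in cortex and the immediate early median -0.13, both of the opposite sign to hippocampus, where they were 1.35 and 0.53. Ccl9 was higher in the knockout in cortex too, at 152.8 against 45.5 RPM, as were Il6 at 26.8 against 6.88 RPM, Fcrls at 2267 against 431 RPM and Bst2 at 93.8 against 15.3 RPM. Ccl3 was lower there, at 44.6 against 67 RPM. Haao, near absent in APP/PS1 hippocampus, stood at 19.5 against 14.3 RPM in cortex, a log2 ratio of 0.43 beside 4.63 in hippocampus.

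Cortical cells without the amyloid transgene allow the Apoe genotypes to be set side by side in another pair of groups, C57BL/6-ApoeKO and C57BL/6, both at 18 months. Of the 62 genes 52 had the same direction there and 38 the same direction by at least 2-fold, while 2 were at least 2-fold in the opposite direction. For this pair, too, the shares over all 5934 genes were not computed. Of the 38, 37 were also at least 2-fold in the same direction in the amyloid cortex. Hpgd stood at 431 against 45.5 RPM, Trim12a at 57.4 against 0.00414 RPM, Bst2 at 88.5 against 7.2 RPM and Colec12 at 0 against 37.3 RPM, in the directions seen in hippocampus. Fcrls was 2823 against 1174 RPM and Il6 16.6 against 11.7 RPM. Activated genes that were lower in the hippocampal knockout did not share 1 direction in this pair. Cst7, at 61.6 against 5.65 RPM, Clec7a, at 32.5 against 16.8 RPM, and Axl, at 18.5 against 3.25 RPM, were higher without Apoe. Cd52, at 103.4 against 169.3 RPM, Cox6a2, at 3.62 against 5.49 RPM, and Itgax, at 14.6 against 17.9 RPM, were lower. Igf1 had no read in this pair. Cd74, 28.2 against 29.3 RPM, and H2-Eb1, 1.07 against 1.26 RPM, stood at about equal low levels with or without Apoe. H2-Q2, at 0.0453 against 0.00414 RPM, and Msh5, at 3.3 against 6.65 RPM, did not show the hippocampal gap. Mrc2, at 37 against 20.2 RPM, and Ets1, at 64.3 against 36.4 RPM, were read in both of these groups, so their absence was seen in APP/PS1 hippocampus and not in C57BL/6 cortex.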

How the data were processed

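The deposited table holds counts of reads per gene and cell, made by the authors. Per the submitters' processing notes, the tools were featureCounts 1.5.1, STAR 2.5.2 and Seurat 2.3.1 with the mm10 build. Their settings are not given in the sources used here. All 29474 genes were kept. The members and gene lists were chosen with earlier results of these data known. Counts were summed over the cells of each group and of each plate and expressed as RPM of the sum, with 0.5 RPM added before the log2 ratio. Ratios carry exact conditional binomial 95% intervals and shares of cells Clopper-Pearson 95% intervals. The interval of a ratio treats each read as independent. PCR copies of a molecule were counted as separate reads and many reads can lie in 1 cell, so that interval can be too narrow. The interval of a share treats each cell as an independent draw. Neither covers differences between animals. Where a group had no read of a gene, its bound used 3 reads over the group. That bound counts reads and does not cover which cells were drawn. Shares of cells used cells thinned to 100000 reads, which kept 319 of 321 knockout cells and 272 of 273 APP/PS1 cells. Named genes were the list members and the 10 highest and 10 lowest ratios, over all 5934 genes of the stricter set and over those with plates apart, without predicted, Rik, -ps and mitochondrial genes. A few genes that this rule names are not reported here. Total depth per cell ranged from 90640 to 995057 reads in the knockout and from 71761 to 999128 in APP/PS1, and no cells were identical. The ratio step was tested on simulated counts of independent reads, which cannot show the effect of PCR copies or of reads held by few cells. Alternatives were other scalings (edgeR 4.0.16 factors and median-of-ratios), pseudocounts, filters, thinning depths, limits, and leaving out the top cell, cells with other markers, each plate and each lane. Positions are from GENCODE vM21 (GRCm38). Python 3.11.15, numpy 2.4.6, scipy 1.17.1, pandas 2.3.3 and R 4.3.3 were used. The cortex comparison rests on 169 knockout and 311 APP/PS1 cells, and that of C57BL/6-ApoeKO with C57BL/6 cortex on 313 and 326. The deposited normalized table, the 18-month APP/PS1 groups and 165 further APP/PS1-ApoeKO cortex cells were not analysed here.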

Additional observations from a re-analysis of the deposited data

Results flagged for a closer look

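In 8 genes the knockout was at least 2-fold away from APP/PS1 in opposite directions in hippocampus and cortex. They are named for that reason, after their values were seen, and the difference between the tissues was not tested. Log2 ratios are given for hippocampus and then cortex. Lower in hippocampus and higher in cortex were Acad12 (-1.54 and 1.14), Cdk10 (-1.56 and 1.58), Riok1 (-1.44 and 1.06), Sox4 (-1.34 and 1.23) and Yeats2 (-1.24 and 1.14). Higher in hippocampus and lower in cortex were Plau (1.08 and -1.42), Ptdss2 (1.20 and -1.24) and Tollip (1.32 and -1.49). Plau, the urokinase plasminogen activator, stood at 89.1 against 42 RPM in hippocampus and at 15.2 against 41.5 RPM in cortex. Cdk10, a cyclin-dependent kinase, stood at 11 against 33.4 RPM in hippocampus and at 21 against 6.71 RPM in cortex.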

How the results depend on the processing

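No paired analysis was possible because each group is 1 sum and no test was made. Of 1679 values of 73 named genes under the alternatives 1628 stayed within the spread of the plates, 42 moved and 9, of genes past 2-fold, changed sign. For ratios and list medians this spread is 1 standard deviation over the 16 pairs of plates. It is widest where plates vary most, so staying within it is no sign of a stable value. For Lpl it was 2.63, and a log2 ratio of 0.59 without knockout plate 3, against 2.66, counted as staying. The small ratio of Clec7a also changed sign without 1 plate or lane in 5 cases. Of 414 list medians 394 stayed and 20 moved, and of 180 shares of cells 1 moved. Without a filter beyond 1 read, 11.5% of genes (2281 of 19920) were 2-fold higher and 7.93% (1579) lower, and the lipid median was -0.06. With the stricter filter these shares were 3.36% and 1.83%, and the chemokine median was 2.17. Without the top cell of each gene the lipid median was -0.10. Leaving out a plate or lane gave 4.63% to 6.66% higher and 2.99% to 4.53% lower genes. The same gave medians of -1.33 to -0.26 for the activated list, -2.82 to -0.36 for MHC class II, 0.05 to 1.49 for interferon response, 0.11 to 0.37 for MHC class I, 0.20 to 2.09 for chemokines, -0.12 to 0.22 for lipid genes, 0.07 to 0.90 for cholesterol synthesis 0.01 to 0.22 for risk loci, -0.05 to 0.52 for cytokines, 0.24 to 0.96 for immediate early genes, -1.29 to 0.22 for cell cycle, 0.00 to 0.32 for glycolysis, -0.07 to 0.15 for phagocytic receptors and -0.11 to 0.13 for the respiratory chain. The share of cells past a limit of 4 activated genes was 57.7% in the knockout and 51.5% in APP/PS1. At a limit of 8, added after seeing the data, it was 2.51% and 10.3%. For interferon genes at a limit of 4 it was 15.4% and 9.19%, and for MHC class II it was 26.6% and 18.8% at a limit of 2, against 4.39% and 7.35% at a limit of 3. The log2 ratio changed sign for Ccl4 without its top cells (-0.14), knockout plate 1 (-0.62) or lane 35 (-0.50), for Tnf without knockout plate 1 (-0.61) or lane 35 (-0.15), and for Mx1 without knockout plate 2 (-0.08). It also changed sign for Cxcl10 without APP/PS1 plate 3 (0.02) or lane 42 (0.02) and for Cxcl13 without APP/PS1 lane 41 (0.06). The largest leave-one-out ratios of these genes in size were 3.33 for Ccl4 and for Mx1, 4.20 for Tnf, -3.95 for Cxcl10 and -4.46 for Cxcl13. A single knockout cell held 87% of the Ccl4 and 86.3% of the Tnf reads, and single APP/PS1 cells held all Cxcl10 reads, 81% of Cxcl13 and 84.9% of Mx1 reads. Without its top cells the log2 ratio of Cxcl10 was 0.00. The cause of the other moves was not tested.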

Other observations

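Plates with even and with odd numbers differed for some genes in both groups, which was noticed in the data. Among 5934 genes 2.6% stood higher on both even plates than on both odd plates of each group, and 1.31% the other way round. The shares for other splits of the plates, or for plates in random order, were not computed. These 2 shares are therefore not read as a difference between even and odd plates. C1qc, a chain of complement C1q, stood at 1673, 6288, 2741 and 5482 RPM on knockout plates 1 to 4 and at 2132, 5078, 2287 and 4698 RPM on APP/PS1 plates 1 to 4. Fam126b was the only gene whose nearest even and odd plates were more than 2-fold apart in each group. It stood at 32.3, 12.3, 25.7 and 2.54 RPM in the knockout and 34.1, 11.8, 29.6 and 10.7 RPM in APP/PS1. For C1qc and for Fam126b, even and odd plates stood in the same order in both genotypes.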
